A study of Xenopus tropicalis with 12 samples.

Results

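Thyroid hormone drives the metamorphosis of the frog Xenopus tropicalis, and the tadpole intestine is one of the organs it remodels, replacing the larval epithelium with an adult one. TRα, a nuclear receptor for the hormone, sits on the DNA of its target genes together with a retinoid X receptor. Without hormone the receptor recruits corepressors that hold such genes low, and the active hormone T3 exchanges them for coactivators. For a gene held low in this way, hormone and loss of the receptor can act in the same direction. A set of 98 genes with that pattern of levels, out of 19921 counted, is described here.

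The members were chosen by their measured levels in all 4 groups of RNA-seq libraries. A level is given as CPM, counts scaled to the size of the library with TMM factors, and differences of the rule are on the log2(CPM + 0.5) scale. A member reached at least 2 CPM in its highest group mean. It was at least 1 log2 unit higher in T3WT than in contWT and at least 1 higher in contHomo than in contWT. Its T3Homo mean lay within 1 log2 unit of contHomo. All these differences were used to choose the genes, so they are given as descriptions without a test.

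By the column labels of the count table, contWT is untreated wild-type intestine and contHomo untreated TRα(-/-) intestine. T3WT and T3Homo are the same genotypes after 18 h in 10 nM T3. The tadpoles had shared parents and a labelled stage of 52 to 54. RNA of several tadpoles was merged into 1 pool per group and sequenced as 3 technical libraries, so spreads, SE and p-values cover libraries and not animals. The nature of the TRα mutation is not given in the sources used here.

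The sample titles, with their genotype and treatment fields, disagree with the column labels for 6 of the 12 libraries. They describe contHomo as wild type with T3 and T3WT as TRα(-/-) without T3. The identities of contWT and T3Homo are the same in both. A rise over contWT in T3WT and contHomo is therefore a rise with T3 alone and a rise with loss of TRα alone under either reading, with the names exchanged. The condition on T3Homo is not symmetric in this way. With T3Homo held within 1 log2 unit of T3WT instead, 92 genes met the rule, and 88 of them were among the 98 members.

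The deposited table gives identifiers without names, and the reference gene table held 0 of them. The members are therefore given by identifier or by scaffold position in the deposited table, with no function attached, and no protein or promoter sequence could be matched to them. TRα itself, intestinal marker genes and known T3 targets could not be looked up, so the labels were not checked against marker genes. Libraries held 34322099 to 44755390 counts. The TMM factor was 1.21 to 1.22 in the T3WT libraries and 0.913 to 0.957 in the others.

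Of the 10677 genes at 2 CPM or more, 754 met the condition on T3WT and 178 that on contHomo. Both conditions were met by 117 genes. T3Homo then left the range around contHomo in 19 of them, above it in 7 and below it in 12, and the remaining 98 are the members. The conditions share the contWT libraries, so a low contWT value enters both. No member rested on a zero: the lowest member had 32 counts over the 3 contWT libraries, and 67 members had at least 100. All 98 passed the filter on low counts, which kept 13172 genes. The rule's level of 2 CPM in the highest group largely sets this, and it does not bear on the contWT values.

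The members together took 0.138 to 0.139% of all counts in the contWT libraries and 0.805 to 0.814% in T3WT. In contHomo the share was 0.409 to 0.412%, and in T3Homo it was 0.531 to 0.538%. Without the most abundant member the shares were 0.0876 to 0.0881%, 0.518 to 0.522%, 0.284 to 0.286% and 0.303 to 0.305%, in the same order of groups. These shares use counts without TMM factors. The factor was largest in T3WT, so T3WT stands higher beside the other groups here than it does in CPM. The rule fixes that T3WT and contHomo lie above contWT. In bulk RNA, more cells of a kind and more RNA per cell cannot be told apart.

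The median rise of a member was 2.03 log2 units in T3WT (quartiles 1.67 and 2.30) and 1.38 in contHomo (quartiles 1.198 and 1.59). These correspond to 4.09-fold and 2.61-fold. Over all genes at 2 CPM or more the medians were -0.03 and -0.02. A rise of at least 2 log2 units was seen for 52 members in T3WT and for 7 in contHomo. T3Homo differed from contHomo by a median of 0.08 (quartiles -0.09 and 0.26), and 84 members lay within 0.5 log2 units of contHomo. Over all genes at 2 CPM or more this median was 0.02 (quartiles -0.18 and 0.25), so such closeness is not particular to the members. The rule also limits this difference, and the genes within 0.5 were not counted over all genes.

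**Figure D1:**
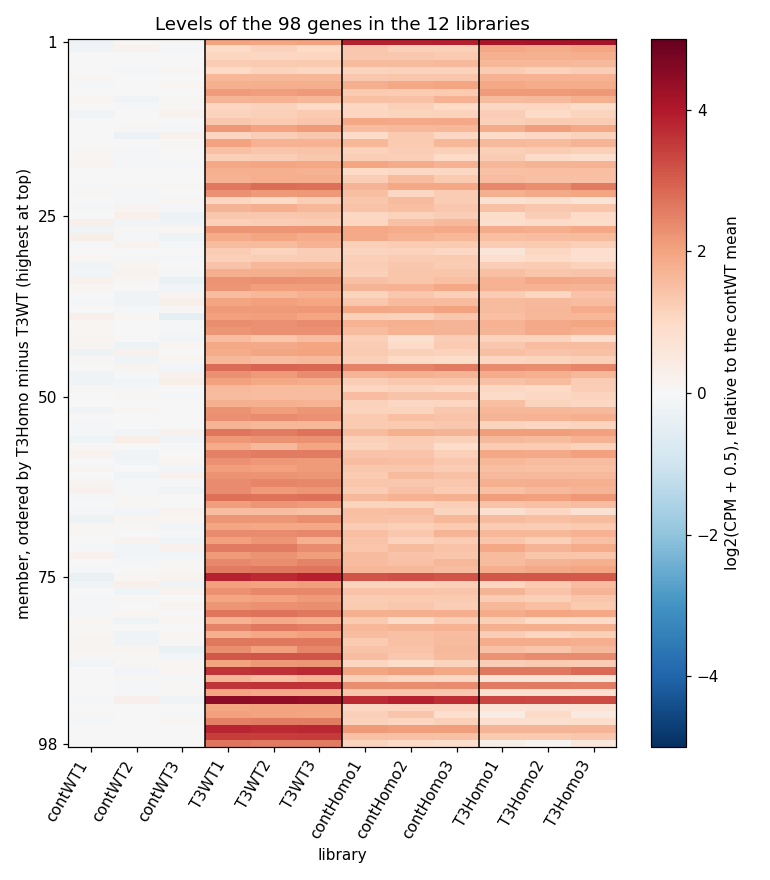
Level of each of the 98 members (rows) in the 12 libraries (columns), as log2(CPM + 0.5) relative to the mean of the contWT libraries. Rows are ordered by the difference between T3Homo and T3WT, with the highest at the top. Libraries of a group look alike, and T3WT has the highest mean for 86 members.

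In the mean levels, contWT was lowest for all 98 members, which the rule fixes. Above it, 54 members had the order T3WT, T3Homo, contHomo, and 32 had T3WT, contHomo, T3Homo. T3Homo was highest for 7 members and contHomo for 5. The median member stood in contHomo at 60.2% and in T3Homo at 67.9% of its T3WT level. For most members the spread between libraries was small beside the rises over contWT. The median coefficient of variation was 11.1% in contWT, 3.68% in T3WT, 6.50% in contHomo and 5.24% in T3Homo. The highest values were 63.7%, 15.6%, 26.2% and 41.2%, in the same order of groups. The order of T3Homo and contHomo is not resolved for the 41 members in which their libraries overlapped. For the others it is resolved between the pools only. The share over all genes tested is given below.

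A gene was called in edgeR's quasi-likelihood test at an adjusted p below 0.05 and a log2 fold change of at least 1 in size. In the contrasts that chose the members, each of the 98 was called higher in T3WT vs contWT, where 12.8% of all genes tested were. All 98 were also called higher in contHomo than in contWT, against 3.11% of all genes. In T3Homo against contHomo 1 member was called, lower, where 6.6% of all genes were called in either direction. Nothing is read from these counts, since the rule set them.

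The libraries of T3Homo and contHomo overlapped for 41 members. They stood apart for the other 57, or 58.2%, where 65.7% of all genes tested stood apart. T3Homo was the higher group for 36 of the 57 and the lower for 21. These directions were not counted over all genes, and nothing is read from them. T3Homo was called higher than contWT for 92 members, against 5.12% of all genes, and its libraries lay above contWT for all 98. These groups have the same identity in both sets of labels, wild type without T3 and TRα(-/-) with T3. The rule fixes the direction of their means too, and the separation of their libraries was not counted over all genes. The 6 members without a call had log2 fold changes from 0.66 to 0.99, and 4 of them were among those called lower in T3Homo than in T3WT.

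The rule set no threshold on the difference between T3WT and the 2 other raised groups, though the same libraries chose the members. On the scale of the rule, these differences follow from those that it limits. Its condition on T3WT was met by 754 genes and that on contHomo by 178. Genes that meet both can therefore tend to have T3WT on top by selection alone. How much of the members' excess over all genes this accounts for was not tested, and nothing is read from that excess. T3WT lay above contHomo without overlap for 78 members (79.6%), where 43.3% of all genes tested did so. T3Homo lay below T3WT without overlap for 84 (85.7%), against 38.2%. Most of these differences were under 2-fold. The median edgeR log2 fold change of the members was 0.74 in T3WT vs contHomo, against 0.07 over all genes tested, and -0.57 in T3Homo vs T3WT, against -0.02.

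At the 2-fold threshold, 24 members (24.5%) were called higher in T3WT than in contHomo, against 13.9% of all genes, and 1 was called lower, against 4.9%. In T3Homo vs T3WT, 11 members (11.2%) were called lower, against 13.4% of all genes. With TMM factors that share is near the background. A single member, 1.02%, was called higher there, against 2.76%. T3WT was also the group with the largest TMM factor. With total-count scaling the medians of all genes moved to 0.45 in T3WT vs contHomo and -0.35 in T3Homo vs T3WT, and 53 and 40 members were then called. These are 54.1% and 40.8% of the members, where 24.1% and 20.2% of all genes tested were called in the same directions under that scaling. Relative to the median of all genes, the members' medians were 0.67 and -0.56 with TMM factors and likewise with total-count scaling. A change of scaling moves all genes of a comparison alike, so that likeness was fixed in advance. The selection bears on these calls and medians in the same way, so their distance from all genes is a description.

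**Figure D2:**
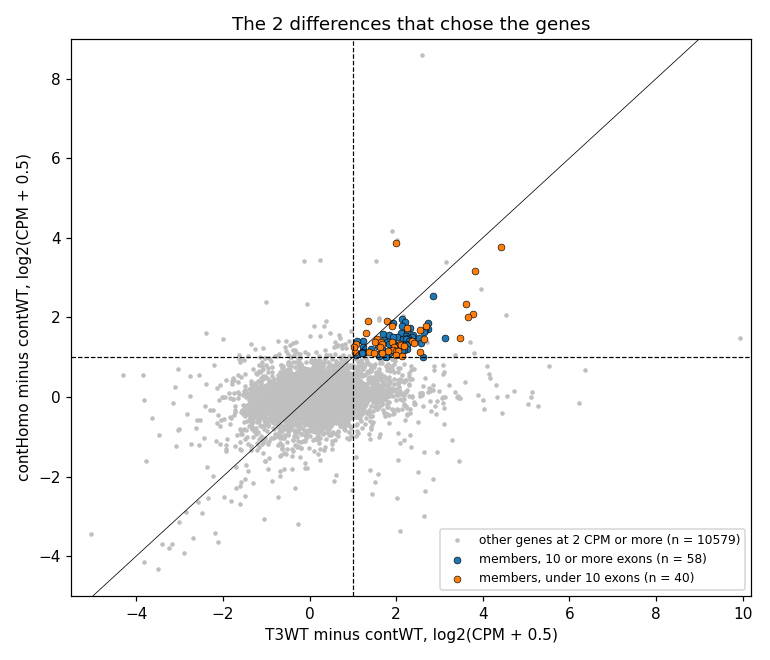
Difference of T3WT from contWT (horizontal) and of contHomo from contWT (vertical), both on the log2(CPM + 0.5) scale, for the 98 members, coloured by exon number, and the other genes at 2 CPM or more in grey. Dashed lines mark the thresholds of 1 and the solid line marks equality. The rule places the members in the upper right, and most of them, 88, lie below the line, higher in T3WT than in contHomo.

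ENSXETG00000030759 ranked first by the smaller of its rises. It has 3 exons on the minus strand of scaffold GL172717.1, from 2497084 to 2500808. Its level was 0.533, 0.827 and 0.487 CPM in the contWT libraries and 24.5, 23.5 and 22.6 CPM in T3WT. It was 14.1, 15.7 and 13.9 CPM in contHomo and 10.6, 10.5 and 10.3 CPM in T3Homo. No groups overlapped, and T3Homo was the lowest of the 3 raised groups. The edgeR log2 fold change over contWT was 5.25 ± 0.10 (SE) in T3WT and 4.55 ± 0.12 in contHomo. T3Homo vs T3WT was -1.18 ± 0.05. Each SE given here is the size of the log2 fold change divided by the square root of the test's F statistic. With few contWT counts, 64 in all for this gene, such an SE can understate the uncertainty of a rise over contWT.

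ENSXETG00000031612, next in that order, has 1 exon on the minus strand of GL173975.1, from 86467 to 88104. It stood at 0.449, 0.798 and 0.853 CPM in contWT and at 16.9, 15.5 and 17.2 CPM in T3WT. The contHomo libraries held 10.1, 10.6 and 10.1 CPM and the T3Homo libraries 9.74, 9.80 and 9.56 CPM. T3Homo lay just under contHomo without overlap, by a log2 fold change of -0.09 ± 0.06 (SE) that was not called. The rises over contWT were 4.57 ± 0.11 in T3WT and 3.87 ± 0.12 in contHomo. With 72 contWT counts in all, these SE can be too small as well.

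The 2 largest falls from T3WT to T3Homo were found in genes of very different abundance. ENSXETG00000025507 has 7 exons on the plus strand of GL173085.1, from 703280 to 714285. It held 67.0, 65.9 and 66.3 CPM in contWT and 736.3, 739.0 and 744.9 CPM in T3WT. In contHomo it stood at 185.7, 185.4 and 184.8 CPM and in T3Homo at 164.9, 167.2 and 168.4 CPM. On the scale of the rule, contHomo stood at 2.78-fold and T3WT at 11.1-fold the contWT level. No groups overlapped. Its log2 fold change in T3Homo vs T3WT was -2.17 ± 0.02 (SE).

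ENSXETG00000012422 has 19 exons on the plus strand of GL172680.1, from 3404342 to 3537561. It was at 0.365, 0.371 and 0.335 CPM in contWT, from 37 counts in all, and at 4.91, 4.73 and 4.64 CPM in T3WT. Its contHomo values were 1.37, 1.23 and 1.06 CPM and its T3Homo values 0.560, 0.438 and 0.728 CPM. Its log2 fold change in T3Homo vs T3WT was -3.07 ± 0.14 (SE), larger in size than that of ENSXETG00000025507. T3Homo was close to contWT here. The gene was the member called lower in T3Homo than in contHomo, with a log2 fold change of -1.09 ± 0.21 (SE). It was also the member nearest to the contHomo threshold, at 1.005.

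**Figure D3:**
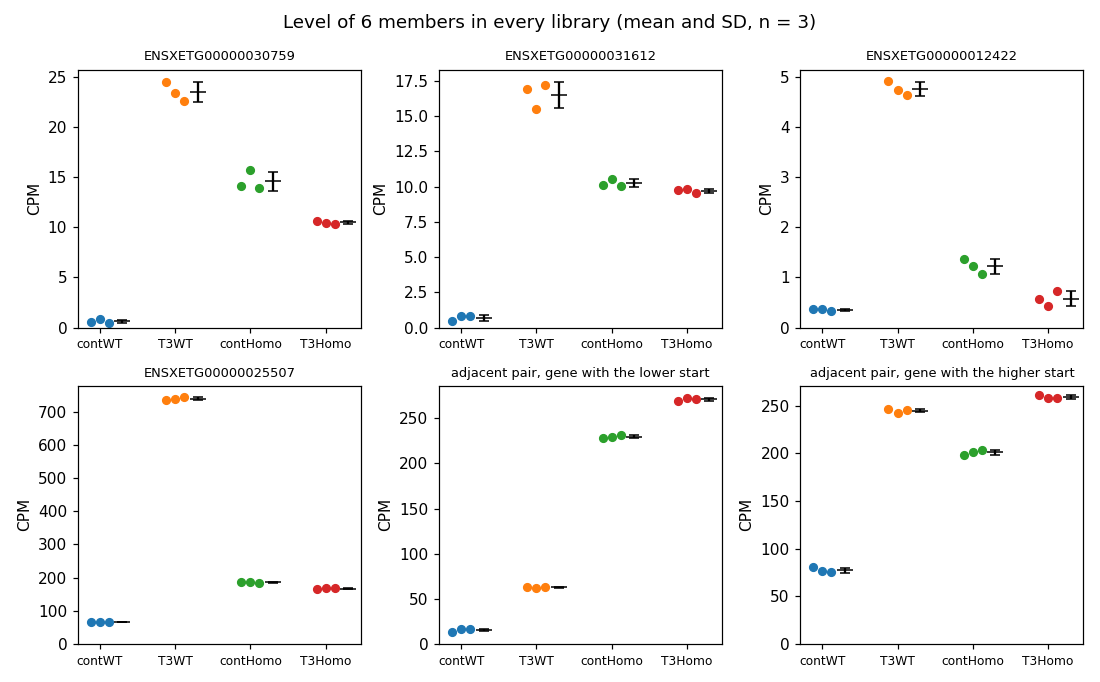
Level in CPM of 6 members in every library, with the mean and SD of the 3 libraries of a group beside the points. The first 4 panels are the genes named by identifier, with T3WT highest in each. In the last 2 panels, a pair of adjacent genes on scaffold GL172759.1, T3Homo is highest.

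The 10 members at 100 CPM or more in a group, a limit set after their values were seen, have 2 to 9 exons. T3WT was highest in 4 of them and another group in 6, and among the other 88 members T3WT was highest in 82. Their T3Homo minus T3WT differences ran from -2.15 to 2.11 log2 units. Among the 88, they ran from -2.29 to 0.89, the median was -0.53 and the quartiles were -0.72 and -0.36. The highest group was not counted over all genes, and T3WT on top can follow from the selection. Nothing is read from this contrast by level.

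The member with the highest level has 2 exons on the minus strand of GL172851.1, from 995024 to 999715. It stood at 546.1, 538.5 and 557.5 CPM in contWT and at 1365, 1318 and 1350 CPM in contHomo. T3WT held 2403, 2347 and 2371 CPM, and T3Homo held 2382, 2405 and 2444 CPM. The T3WT and T3Homo libraries overlapped, and both groups lay above contHomo. It was the member nearest to the limit on T3Homo vs contHomo, at 0.84 log2 units. Per kilobase of exon its T3WT level was 2086 CPM.

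A short gene on GL172916.1 (3 exons, plus strand), from 603458 to 605661, had 1632 CPM per kilobase in T3WT and 2056 in T3Homo. Its values were 247.2, 252.3 and 258.0 CPM in contWT and 615.6, 630.6 and 634.0 CPM in T3WT. They were 763.7, 766.3 and 769.4 CPM in contHomo and 793.8, 790.2 and 785.0 CPM in T3Homo. Here T3WT was the lowest of the raised groups. Its contHomo vs contWT log2 fold change was 1.60 ± 0.02 (SE) and its T3WT vs contWT one was 1.32 ± 0.02.

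The fourth gene by highest group mean, after ENSXETG00000025507, with 5 exons on the plus strand of GL173552.1 from 103076 to 106580, had T3WT far above the other groups. It went from 41.6, 41.6 and 42.3 CPM in contWT to 585.3, 561.2 and 580.0 CPM in T3WT. The contHomo libraries were at 184.7, 177.6 and 178.3 CPM and the T3Homo libraries at 135.2, 135.3 and 136.6 CPM. Its log2 fold change in T3Homo vs T3WT was -2.10 ± 0.02 (SE). No groups overlapped in this gene.

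The other genes at 100 CPM or more are named for that level, after their values were seen. The gene with 4 exons on the minus strand of GL172920.1, from 250288 to 255984, was at 23.1, 22.7 and 24.3 CPM in contWT and at 287.5, 289.2 and 291.7 CPM in T3WT. It was at 119.6, 120.3 and 123.4 CPM in contHomo and at 145.1, 144.1 and 141.3 CPM in T3Homo. Its log2 fold change of -1.03 ± 0.02 (SE) in T3Homo vs T3WT was just past the threshold for a call. The gene with 2 exons on the plus strand of GL172724.1, from 1556398 to 1564879, held 63.2, 65.6 and 66.2 CPM in contWT and 213.5, 207.3 and 209.1 CPM in T3WT. It held 161.6, 163.0 and 164.5 CPM in contHomo and 142.6, 138.8 and 141.7 CPM in T3Homo, and no groups overlapped.

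In another pair of these genes T3WT was not the highest group. The gene on GL173626.1 (9 exons, plus strand), from 125815 to 141269, was at 123.4, 121.5 and 126.3 CPM in contWT and at 261.7, 256.1 and 259.7 CPM in T3WT. It was at 317.0, 311.5 and 306.0 CPM in contHomo and at 425.7, 430.2 and 442.4 CPM in T3Homo, so that T3WT was the lowest raised group. A gene of 7 exons on the minus strand of GL173076.1, from 247444 to 258508, stood highest in contHomo at 233.9, 229.8 and 228.4 CPM. Its level was 60.3, 61.8 and 60.4 CPM in contWT, 154.2, 151.6 and 159.3 CPM in T3WT and 140.5, 146.4 and 145.8 CPM in T3Homo.

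The 2 members with the most positive T3Homo minus T3WT difference were a gene of the adjacent pair on GL172759.1, described next, and a single-exon gene on scaffold GL172849.1, from 873631 to 874377, plus strand. The latter was at 0.814, 1.197 and 0.944 CPM in contWT and 2.36, 2.77 and 2.46 CPM in T3WT. It was at 3.29, 2.86 and 2.92 CPM in contHomo and 5.23, 4.84 and 5.27 CPM in T3Homo. T3Homo was the highest group, with a log2 fold change of 0.99 ± 0.10 (SE) over T3WT, just short of a call. Its rise in T3WT, 1.03 on the scale of the rule, was the nearest to that threshold.

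The 98 members lie on 91 scaffolds. On 7 scaffolds there are 2 members, and in 2 of these cases no annotated gene lies between them. The first such pair, on the minus strand of GL172759.1, is separated by 1931 bases. Both genes have 7 exons, and 3 exon lengths occur in both. If they are copies that share reads, their single levels are uncertain, which was not tested. The gene from 2634234 to 2647807 was at 13.6, 16.5 and 15.9 CPM in contWT and at 62.6, 62.1 and 62.6 CPM in T3WT. It reached 228.3, 229.1 and 231.8 CPM in contHomo and 269.3, 272.7 and 271.6 CPM in T3Homo. It was the 1 member called higher in T3Homo than in T3WT (log2 fold change 2.10 ± 0.02 SE) and the 1 called lower in T3WT than in contHomo (-1.87 ± 0.02 SE).

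Its neighbour from 2649739 to 2660067 did not share that difference between the raised groups. It held 80.1, 76.0 and 75.1 CPM in contWT and 246.0, 242.5 and 245.1 CPM in T3WT. It held 198.4, 201.8 and 203.5 CPM in contHomo and 261.3, 258.1 and 258.0 CPM in T3Homo. T3Homo lay above T3WT without overlap, but by a log2 fold change of only 0.07 ± 0.02 (SE). A gene of 15 exons on the same scaffold, from 2442517 to 2453777, lies 1 gene away from the pair and did not meet the rule. Its means were 1.31 CPM in contWT, 5.10 in T3WT, 3.11 in contHomo and 8.08 in T3Homo. It was 0.9994 log2 units up in contHomo, and T3Homo lay 1.25 above contHomo, outside the limit of 1.

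The other adjacent pair lies on GL173416.1, with 4232 bases between genes on opposite strands and 0 exon lengths in common. The gene on the plus strand (8 exons), from 377977 to 383193, was at 1.24, 0.855 and 0.701 CPM in contWT and at 4.75, 5.07 and 4.72 CPM in T3WT. It was at 4.87, 4.30 and 4.06 CPM in contHomo and at 3.57, 3.62 and 3.82 CPM in T3Homo. The gene of 15 exons on the minus strand, from 387426 to 397334, was at 0.814, 0.570 and 0.762 CPM in contWT and at 3.48, 3.56 and 3.32 CPM in T3WT. It was at 2.96, 2.86 and 3.58 CPM in contHomo and at 3.18, 3.24 and 3.69 CPM in T3Homo. In both genes T3WT and contHomo overlapped, and all 3 raised groups lay above contWT.

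Exon number, exon length and position were not used by the rule. Members had a median of 12 exons (quartiles 6 and 19.8) and 2018 bases of exon sequence, where all genes at 2 CPM or more had 10 exons (quartiles 6 and 16) and 1854 bases. At least 20 exons were found in 25.5% of the members and in 18.2% of all these genes. The span on the scaffold was slightly smaller in the members, a median of 13083 bases against 15044. Members lay on the plus strand in 54 cases and on the minus strand in 44. No member shared exon bases with another annotated gene, which 1.17% of all genes at 2 CPM did. In 3 members the gene span overlapped another.

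The members were mostly genes of low level, with a median highest group mean of 8.58 CPM against 15.7 CPM for all genes at 2 CPM or more. Under 10 CPM in every group were 54.1% of the members and 37.3% of all these genes. In contWT the median member stood at 1.54 CPM, and the median of all these genes was 12.5 CPM. The rule favours a low contWT level, so this is a description.

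The members were also split by exon number, at a limit of 10 chosen after the values were seen. The 58 members with 10 or more exons had highest group means from 2.0002 to 80.6 CPM, with a median of 7.71 CPM. Their T3Homo minus T3WT differences had a median of -0.48 and an SD of 0.31 log2 units, and all 58 were below 0. The 40 members with fewer exons had a median of -0.64 and an SD of 0.76. Among all genes at 2 CPM or more the SD was 0.64 with 10 or more exons and 0.66 with fewer. The rises over contWT, which the rule limits from below, had an SD of 0.47 against 0.82 in T3WT and 0.28 against 0.66 in contHomo. Among all genes at 2 CPM or more these SD were 0.71 against 0.76 in T3WT and 0.37 against 0.47 in contHomo. All these differences are made of the group means that chose the members. The SD are therefore descriptions, and nothing is read from them.

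Of the 11 members called lower in T3Homo than in T3WT, 10 had fewer than 10 exons, and the exception was ENSXETG00000012422. The calls thus covered 1.72% of the members with 10 or more exons and 25% of those with fewer, where 12.4% and 14.3% of all genes tested in these exon classes were called lower. Those called higher in T3WT than in contHomo were 12 of the 58, or 20.7%, and 12 of the 40, or 30%. Among all genes tested in these classes the shares were 13.3% and 14.5%. The selection of the members bears on these comparisons with all genes too, and nothing is read from them. Level moved with exon number among the members. The 40 had a median highest group mean of 15.8 CPM and an upper quartile of 119.6 CPM, where the 58 had a median of 7.71 CPM. Over all genes at 2 CPM or more, the medians ran the other way, 14.4 CPM with under 10 exons and 16.7 CPM with 10 or more. The part of level in the difference between the members' exon classes was not tested.

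Beside the genes given above, 6 members were called lower in T3Homo vs T3WT, at log2 fold changes from -1.84 to -1.05 and T3WT means from 2.58 to 89.5 CPM. In the gene on GL172795.1 from 1366063 to 1368270 the contWT libraries were at 12.5, 12.7 and 13.5 CPM and the T3WT libraries at 77.1, 78.8 and 80.1 CPM. It stood at 29.2, 27.9 and 30.2 CPM in contHomo and at 23.4, 23.1 and 24.3 CPM in T3Homo. T3Homo was the nearest to contWT there, as it was in the gene on GL172691.1 from 674660 to 679865. That gene held 22.4, 21.7 and 22.1 CPM in contWT, 88.2, 90.9 and 89.4 in T3WT, 46.3, 47.3 and 46.7 in contHomo and 35.3, 35.3 and 35.3 in T3Homo. The gene on GL172994.1 from 480109 to 487008 differed, with T3Homo above contHomo. It was at 0.449, 0.342 and 0.487 CPM in contWT, 10.9, 11.1 and 11.6 in T3WT, 3.15, 3.47 and 3.02 in contHomo and 5.28, 5.23 and 6.03 in T3Homo. These 3 were picked after their values were seen.

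**Figure D4:**
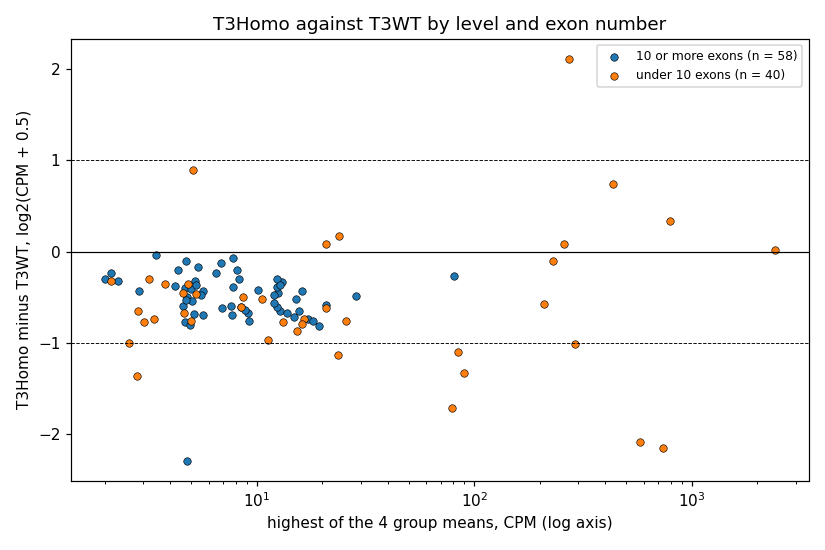
Difference between T3Homo and T3WT, on the log2(CPM + 0.5) scale, against the highest of the 4 group means in CPM on a log axis, for the 98 members. Dashed lines mark differences of 1 and -1. Members with 10 or more exons lie below 0 mostly at low level, with a median of -0.48 and 1 far lower at -2.29 (ENSXETG00000012422), and members at 100 CPM or more run from -2.15 to 2.11.

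At each threshold, the neighbours given here are genes that met every other condition of the rule. The members nearest the T3WT threshold, on GL172849.1 from 873631 and GL172735.1 from 15300, had rises of 1.03 and 1.05, and the nearest such genes outside it had 0.97 and 0.95. At the contHomo threshold the members had 1.005 and 1.02, and the genes outside had 0.9991 and 0.9989. At the limit on T3Homo vs contHomo the members had 0.84 and 0.83, and the genes outside had 1.14 and -1.15. The levels nearest to 2 CPM were 2.0002 and 2.13 inside and 1.83 and 1.75 outside.

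The next 3 genes are those outside the set whose 4 group means followed the members' mean pattern most closely. They had Pearson correlations of 0.99998, 0.9997 and 0.9993 over the 4 groups on the log2 scale, in the order given here. They lie on GL173297.1 from 60131, on GL172981.1 from 82449 and on GL172907.1 from 528924. The first moved little, from 5.72 CPM in contWT to 7.45 in T3WT, 6.91 in contHomo and 6.98 in T3Homo. The next stood at 1.11 CPM in contWT, 3.19 in T3WT, 2.47 in contHomo and 2.49 in T3Homo, and missed the contHomo threshold at 0.88. The last was at 0.960, 2.09, 1.70 and 1.70 CPM in the same order of groups.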

How the data were processed

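The deposited table holds raw counts for 12 libraries of tadpole intestine RNA, per the file headers. The submitters' processing notes name STAR 2.5.3a and featureCounts 1.4.6-p3. The sources used here do not give the genome build, annotation release, strand setting or handling of multiply aligned reads, so reads of antisense or copied genes may be shared. Exon length is the length column of the deposited table, and exons were merged over transcripts.

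TMM factors and CPM over all 19921 genes gave the levels and the members. Tests used edgeR 4.0.16 in R 4.3.3 (filterByExpr, TMM, glmQLFit and glmQLFTest, 1 coefficient per group, all 12 libraries, Benjamini-Hochberg adjustment over the 13172 genes tested). The steps were tested on simulated data. Planted members were limited to genes above a count limit and had equal rises, so members at low level or near a threshold were not covered. SE is the absolute log2 fold change divided by the square root of the F statistic of glmQLFTest. DESeq2 1.42.0 was an alternative. The members, lists and limits were chosen with earlier results of these data known. Gene lists and cell type markers by symbol could not be used, because 0 identifiers were in the reference table. Identifiers are given for the 2 members with the largest smaller rise and for the 2 with the lowest T3Homo minus T3WT difference among the rest. Positions are given for the 4 with the highest group mean in CPM, the 2 with the highest T3Homo minus T3WT difference and adjacent members. Pairs of libraries of a group had a chi-square statistic of 1.25 to 1.84 per gene and were counted separately. Groups follow the column labels.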

Additional observations from a re-analysis of the deposited data

How the results depend on the processing

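The number of members, 98, was 100 with RLE factors, 111 with total-count scaling and 97 with TMM factors of the filtered genes. It was 125 with a pseudocount of 0.1 and 75 with 1, and 104 with a minimum level of 1 CPM and 70 with 5 CPM. With log2 thresholds of 0.8 and 1.2 on the rises in T3WT and contHomo it was 135 and 70. The limit of 1 on T3Homo vs contHomo was kept in these 2 runs. Leaving out 1 library at a time gave 96 to 103, and 91 members met the rule in every such run. The rule with T3Homo near T3WT was chosen after seeing the data. Members called lower in T3Homo than in T3WT were 11, but 40 with total-count scaling. Members called higher in T3WT than in contHomo were 24, but 53 with total-count scaling and 10 with glmTreat, whose null hypothesis covers changes up to 1 log2 unit. The 1 member called higher in T3Homo than in T3WT became 2 with RLE factors, without the filter and with DESeq2. It ranged from 1 to 2 when 1 library was left out, with 2 without T3WT replicate 2 and without T3Homo replicate 2. Total-count scaling moves all genes in T3WT alike, and glmTreat is stricter by construction. For the others the cause was not tested. Members called higher in T3Homo than in contWT stayed between 82 and 93. Same-numbered libraries of different groups had correlations of deviations from -0.06 to 0.08, and 3 of 12 libraries correlated best with their own number, so numbers do not pair them. A replicate block left 11, 24 and 92 calls in T3Homo vs T3WT, T3WT vs contHomo and T3Homo vs contWT. With 32 counts in contWT at the least, folds of the lowest members are imprecise.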
